A study of Mus musculus with 96 samples.

Results

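Cytosolic ribosomal protein genes encode the proteins that, with ribosomal RNA, make up the small and large subunits of the ribosome in the cytosol. Members were taken by gene symbol in the array annotation, namely numbered Rps and Rpl symbols plus the stalk genes and Rpsa, without pseudogenes and without the ribosomal S6 kinases. Each gene was represented by its brightest probe set annotated with a single symbol. This gave 49 genes of the 18193 measured: 21 of the small subunit, 20 of the large subunit, 2 of the stalk and 6 paralogs or genes named as like one. A further 29 symbols of the same kind occurred only in probe sets that name several genes, and these are described by number alone.

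The arrays measured liver total RNA of CD-1 mice, which are outbred and so are not genetically alike within a group. Both sexes were exposed through the diet to PB, with liver taken on day 2 or day 7, to model early events of CAR-mediated liver tumour formation by dose. PB is not spelled out in the labels and commonly stands for phenobarbital, a drug that activates the receptor CAR in hepatocytes. Doses were 0, 0.15, 1.5, 15, 75 and 150 mg/kg-day by the design text, while the titles give the same numbers in ppm, a conflict that the data do not settle. There were 24 groups of 4 arrays, 96 in all. The labels do not say that each array is a mouse of its own, so p-values measure the spread between these samples, which may be technical.

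Ribosomal proteins are needed in matched amounts, and most vertebrate mRNAs that encode them start with a run of pyrimidines (C or T in the gene), the 5′ terminal oligopyrimidine tract. The kinase mTOR acts through this tract, by way of LARP1, on how strongly the mRNAs are translated, so their output is set in large part after transcription. In liver, ribosome production rises when hepatocytes grow or enter the cell cycle. Arrays measure mRNA levels and not translation, and in whole liver fewer cells of a type and less RNA per cell cannot be told apart.

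The sequence around the transcription start is shown for the 6 genes described below that rose, with Rplp2, Rps27 and Rps27l beside them, because the pyrimidine tract lies there. Each line gives 15 bases before and 15 from the annotated start onward, on the gene's strand, and capitals mark runs of 6 or more C or T. Sequences are from RefSeq on build GRCm38.p6. Rps19 has 3 annotated starts and Rps27l 2, of which the one with the lowest coordinate is shown.
Rplp0, chr5:115559452-115559481, plus strand: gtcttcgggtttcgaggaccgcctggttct
Rplp2, chr7:141447636-141447665, plus strand: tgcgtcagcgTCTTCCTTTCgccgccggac
Rpl6, chr5:121204486-121204515, plus strand: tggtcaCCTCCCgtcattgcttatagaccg
Rpl7a, chr2:26910792-26910821, plus strand: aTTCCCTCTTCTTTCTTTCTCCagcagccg
Rpl22l1, chr3:28805493-28805522, plus strand: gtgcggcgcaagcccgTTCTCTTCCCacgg
Rps4x, chrX:102189377-102189406, minus strand: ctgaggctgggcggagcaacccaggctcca
Rps19, chr7:24884577-24884606, plus strand: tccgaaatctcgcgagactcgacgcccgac
Rps27, chr3:90213634-90213663, minus strand: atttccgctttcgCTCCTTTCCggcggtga
Rps27l, chr9:66946071-66946100, plus strand: ccaCTCCTCCCCgccgcctctatcccggaa

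Rpl7a has an unbroken run of 21 pyrimidines here, whereas the longest runs of Rplp0 and Rps4x in these 30 bases are of 5 and 4. The window shown for Rps19 holds no run over 4, while 1 of its other starts has a run of 7. The genes that rose therefore did not all have a run of 6 or more at the starts shown. Since 15 of the 30 bases lie before the annotated start, as the run of Rpl6 does, these runs do not tell which mRNAs begin with a tract. Over the 43 members with a promoter in the table, which have 51 annotated starts, a run of at least 6 stood in 52.9% of these windows, against 29.2% of 32851 windows of all genes. Within 50 bases on either side of the start, the letters CTTTCC, as a TOP tract often reads, stood on the gene's strand in 25.5% of member windows and 4.69% of all windows. On the opposite strand the shares were 3.92% and 4.47%, so the excess lay on the transcribed orientation. A run of 8 or more C or T stood on the gene's strand in 74.5% of member windows and 35.7% of all windows, and CTTTCC lies inside such a run wherever it is flanked by further pyrimidines. The letters CGGAAG, the core that ETS factors such as GABP bind, stood on either strand in 35.3% and 9.12%. The TATA box letters TATAAA stood on either strand in 7.84% and 4.94%. These matches describe letters in the windows only.

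Most members were among the brightest signals on the arrays. Averaged over the 96 arrays, 36 of the 49 had a mean of 11 or more on the log2 scale, where array medians were 5.35 to 5.44, and these 36 are called bright below. The 13 with a mean under 11 are called dim, relative to the other members, since several of them still lay above the array medians. The means of the 36 bright members ran from 11.81 for Rpl22l1 to 13.80 for Rps29, a protein of the small subunit that had the highest mean of all members. Rpl37a of the large subunit, at 13.55, and Rps2 of the small subunit, at 13.50, followed. The 3 lowest means were 3.70 for Rpl39l, known mainly from testis, 3.62 for Rpl3l, a paralog known from striated muscle, and 3.37 for Rps16. Lower quartiles of the arrays were 3.91 to 4.09, so these 3 probe sets had means among the dimmest signals of the arrays. Rps16 is a core protein of every ribosome, and a dim probe set of a core gene, here or for Rps6, Rpl12 and Rpl14, says nothing of the abundance of its mRNA.

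The bright members varied little between arrays of one group. Their SD within groups had a median of 0.06 on the log2 scale, against 0.11 for the 997 other genes with a mean of 11 or more and 0.15 for all genes. Rps29 ran from 13.69 to 13.90 over all 96 arrays. The 5 members with the largest SD within groups were all among the 13 under 11. Rps4l, a second gene named for the small subunit protein S4, ran from 5.87 to 9.87, with a median of 8.41 and an SD within groups of 0.64. Rpl14 ran from 5.46 to 7.62 and Rps6, whose protein is phosphorylated by the S6 kinases, from 7.19 to 8.76. In these genes single arrays stood far above or below the others of their group in both sexes, as the plot of the 5 widest members shows.

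**Figure D1:**
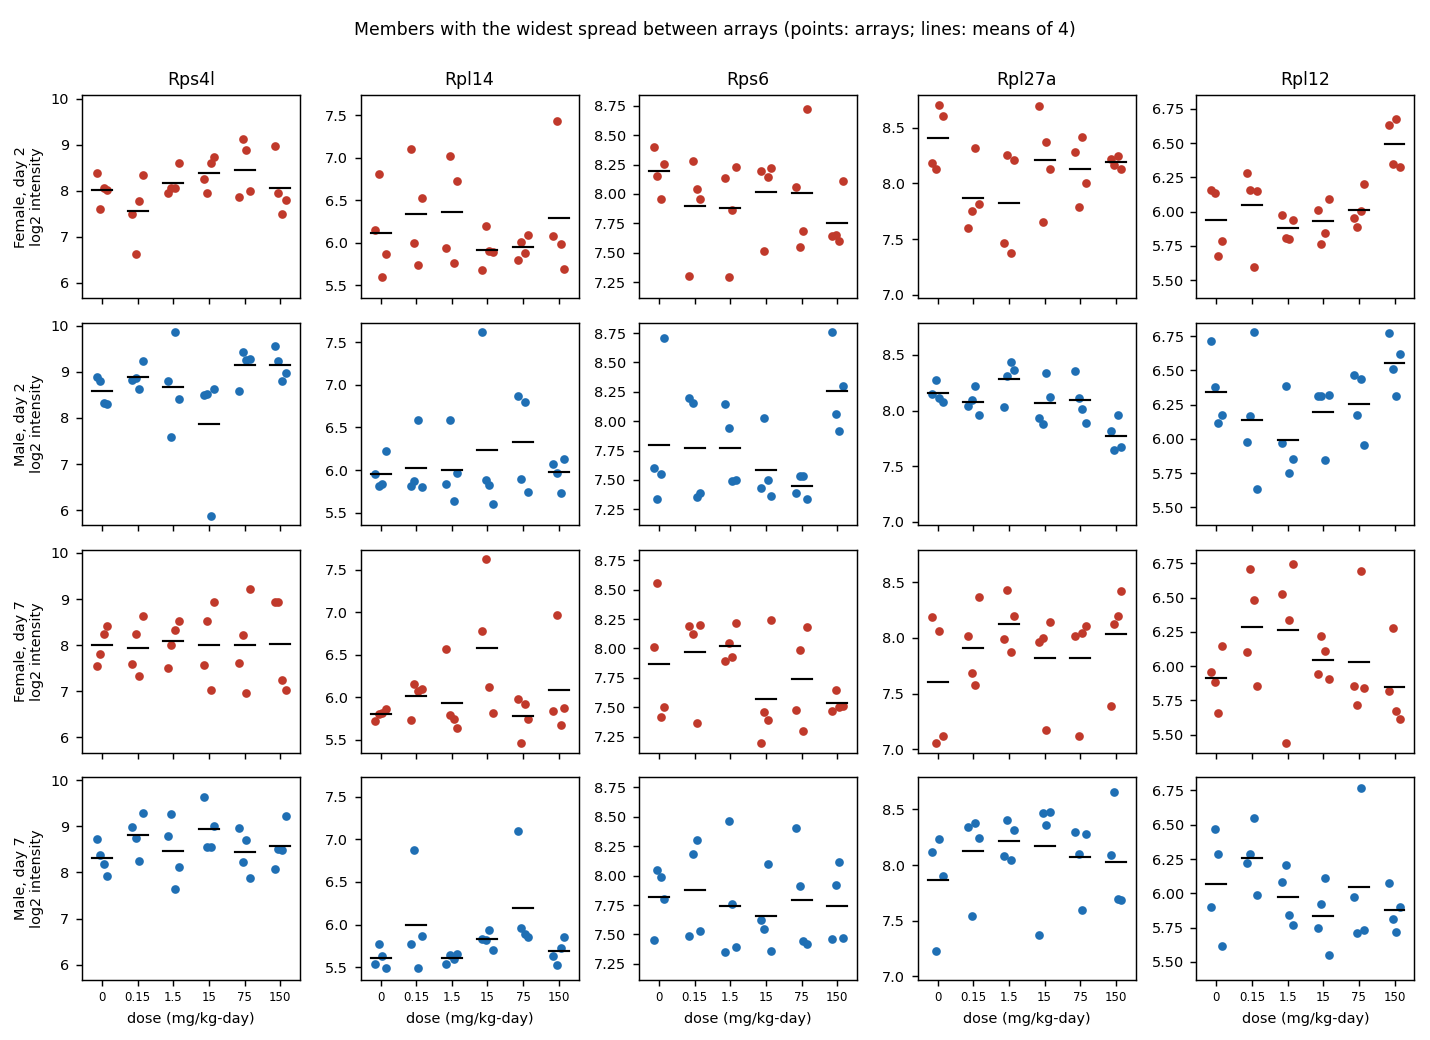
Log2 intensity of Rps4l, Rpl14, Rps6, Rpl27a and Rpl12, the members with the largest SD within groups, on each array (points) by dose in mg/kg-day, with means of 4 arrays as lines, in a row for each sex and day. In Rps4l the lowest array, at 5.87, and the highest, at 9.87, both belong to males on day 2, at 15 and at 1.5 mg/kg-day.

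Which members responded was asked first at the highest dose, against controls of that sex and day. In females on day 2, 6 of the 49 members rose and 0 fell at 150 mg/kg-day, that is 12.2% of members, where 5.46% of all genes passed the same test and 3.32% passed it upward. The 6 were Rplp0, Rpl22l1, Rpl7a, Rpl6, Rps19 and Rps4x, and the rises were small, between 1.12-fold and 1.39-fold. "Rose" and "fell" mean an adjusted p under 0.05 in limma, adjusted over all 18193 genes. The median change over the 49 members was 0.11 on the log2 scale, against -0.03 over all genes, and 41 of 49 lay above 0. At an unadjusted p under 0.05 there were 26 members, all higher at 150, where 16.2% of all genes passed in either direction. Among the 36 bright members, 35 lay above 0 with a median of 0.11, while the 997 other bright genes had a median of -0.05 and 66 of them rose and 116 fell.

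The shift of the bright members can be read array by array. The median deviation of the 36 genes from their dose 0 mean was 0.12, 0.20, 0.06 and 0.06 on the 4 arrays of females at 150 on day 2, against 0.08, -0.06, -0.06 and 0.04 in females at 0. Between 30 and 34 of the 36 genes lay above the dose 0 mean on each array at 150, against 7 to 31 on the arrays at 0. The groups thus overlapped in this median, because control replicate 1 stood above replicates 3 and 4 at 150. Leaving out 1 array at a time gave 1 to 10 called members and a median of 0.07 to 0.14. Without control replicate 3 the only gene called was Rplp0, without replicate 1 or 2 at 150 it was Rplp0 and Rpl22l1, and without control replicate 1 there were 10.

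**Figure D2:**
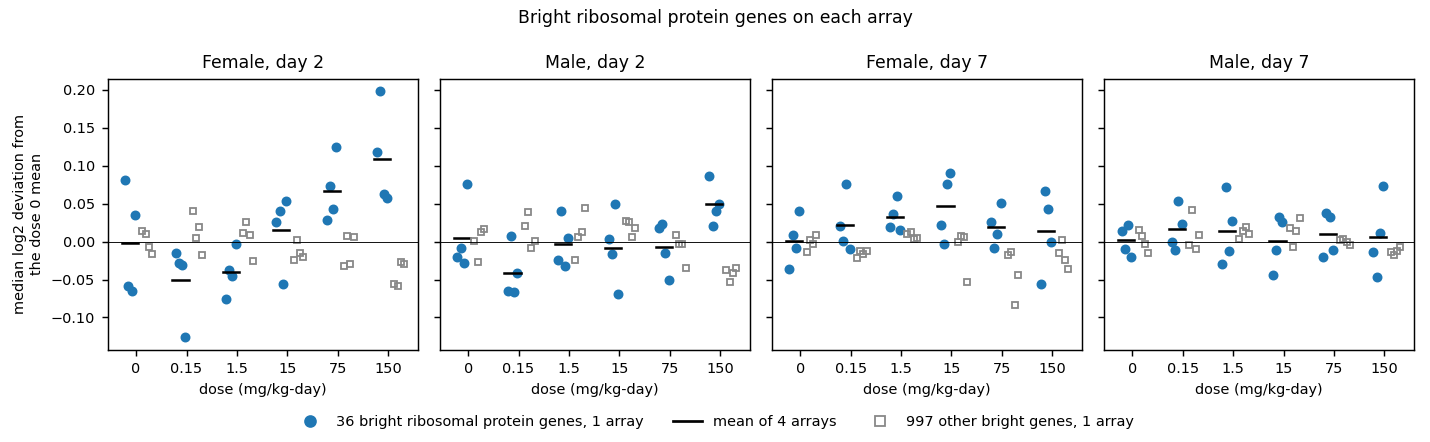
Median log2 deviation of the 36 bright ribosomal protein genes from their dose 0 mean on each array (blue points) and of the 997 other bright genes (grey squares), by dose in mg/kg-day for each sex and day, with the mean of 4 arrays as a line. In females on day 2 the arrays at 150 lie between 0.06 and 0.20 and the control arrays between -0.06 and 0.08, and on day 7 the arrays at 150 lie on both sides of 0 in either sex.

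Of the 21 small subunit genes, 2 rose in females on day 2. Rps19, mutated in human Diamond-Blackfan anaemia, stood at 12.20, 12.27, 11.99 and 12.04 in females at 150, against 12.13, 11.84, 11.70 and 11.99 in females at 0. Control replicate 1 was above both lower arrays at 150, so the groups overlapped. Its change was 0.21 ± 0.06 (SE, n = 4 each; limma adjusted p = 0.0313), or 1.16-fold. Rps4x, the X-linked gene for protein S4, stood at 13.40, 13.48, 13.39 and 13.29 at 150, against 13.34, 13.14, 13.16 and 13.28 at 0. The groups overlapped here as well, through replicate 4 at 150 and control replicate 1. The change of Rps4x was 0.16 ± 0.05 (limma adjusted p = 0.033), and its second probe set, with a mean of only 5.22, gave 0.11 and was not called. Rps19 kept its call in 4 of 8 fits that left out an array and Rps4x in 3 of 8, and both lost it when control replicate 3 was omitted.

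The other small subunit genes named here did not pass the threshold. Rpsa, which encodes a protein of the small subunit also described as a laminin receptor, stood at 12.92, 13.20, 12.95 and 12.91 at 150, against 12.86, 12.71, 12.76 and 12.79 at 0. Its arrays did not overlap, and its change was 0.21 ± 0.08 (limma adjusted p = 0.102). Rps6 had a change of -0.44 ± 0.27 on a dim probe set, and Rps27, whose probe set is also dim, of -0.08, neither called. Rps25 and Rps20 were chosen after their values were seen, because their 4 arrays at 150 all lay above the 4 controls. Rps25 stood at 7.10, 7.00, 7.05 and 7.04 at 150, against 6.74, 6.74, 6.78 and 6.43 at 0, a change of 0.37 ± 0.13 (limma adjusted p = 0.0695). Rps20 averaged 13.21 ± 0.10 at 150 and 13.02 ± 0.07 at 0 (SD, n = 4 each; limma adjusted p = 0.0934).

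Of the 20 large subunit genes, 2 rose. Rpl6 stood at 12.78, 12.79, 12.61 and 12.58 at 150, against 12.55, 12.52, 12.45 and 12.55 at 0, and the arrays did not overlap. Its change was 0.17 ± 0.05 (limma adjusted p = 0.0215), or 1.13-fold. Rpl7a stood at 13.45, 13.45, 13.32 and 13.30 at 150, against 13.33, 13.18, 13.09 and 13.25 at 0, and here control replicate 1 reached above replicates 3 and 4 at 150. The change of Rpl7a was 0.17 ± 0.05 (limma adjusted p = 0.0124). Both calls were lost without control replicate 3 and without replicate 1 or 2 at 150. Rpl12, which sits at the foot of the stalk and was chosen after its values were seen, had the largest change of all members at 0.56 ± 0.21, on a dim probe set (limma adjusted p = 0.113). Its arrays at 150 stood at 6.63, 6.35, 6.67 and 6.33, above those at 0, which stood at 6.16, 6.13, 5.68 and 5.79.

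The stalk is the arm of the large subunit that calls elongation factors to the ribosome. Rplp0, which anchors it and serves as a common reference gene in quantitative PCR, stood at 13.41, 13.42, 13.25 and 13.27 in females at 150, against 13.21, 13.02, 13.05 and 13.17 in females at 0. All arrays at 150 were above all controls, though the gap between replicate 3 and control replicate 1 was narrow. The change was 0.22 ± 0.05 (SE, n = 4 each; limma adjusted p = 0.000675), or 1.17-fold, and Rplp0 was called in 8 of 8 fits that left out an array. In a fit to the females of day 2 alone it was not called (limma adjusted p = 0.0569). Rplp2, the second stalk gene measured, averaged 13.24 ± 0.07 at 150 and 13.11 ± 0.07 at 0 (SD, n = 4). Its change of 0.13 ± 0.05 was not called (limma adjusted p = 0.107).

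Of the 6 paralogs or like genes, 1 rose. Rpl22l1, which in mouse cells is held down by its paralog Rpl22, had the largest change among the called members. It stood at 12.12, 12.30, 12.01 and 12.01 in females at 150, against 11.98, 11.50, 11.12 and 11.95 in females at 0. The arrays did not overlap, but control replicates 1 and 4 came close to the lowest arrays at 150 while replicate 3 lay far below. The change was 0.47 ± 0.10 (limma adjusted p = 0.000753), or 1.39-fold, and the call was lost without control replicate 3. Rpl22 itself averaged 13.00 ± 0.05 at 150 and 12.91 ± 0.07 at 0, a change of 0.09 ± 0.04 that was not called (limma adjusted p = 0.251). Rps27l, known as a p53 target in human cells, changed by 0.12 ± 0.05 and its paralog Rps27 by -0.08, neither called. The probe sets of Rps27l and Rps27 averaged 12.80 and 6.88 over all arrays, and whether each reads its own gene alone was not tested. Rpl7l1, Rpl39l, Rpl3l and Rps4l changed by -0.01, -0.08, -0.09 and 0.04 and were not called either, and of their paralogs measured, Rpl7 and Rpl39 were not called and Rps4x rose, as given above.

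Across the 49 members, 9 had all 4 arrays of females at 150 on day 2 above all 4 controls, where 4.54% of all genes did so, and 0 had them below, where 5.61% did so. The 9 were Rplp0, Rpl22l1, Rpl6, Rpl8, Rpl12, Rpl19, Rps20, Rps25 and Rpsa, of which 3 were called.

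**Figure D3:**
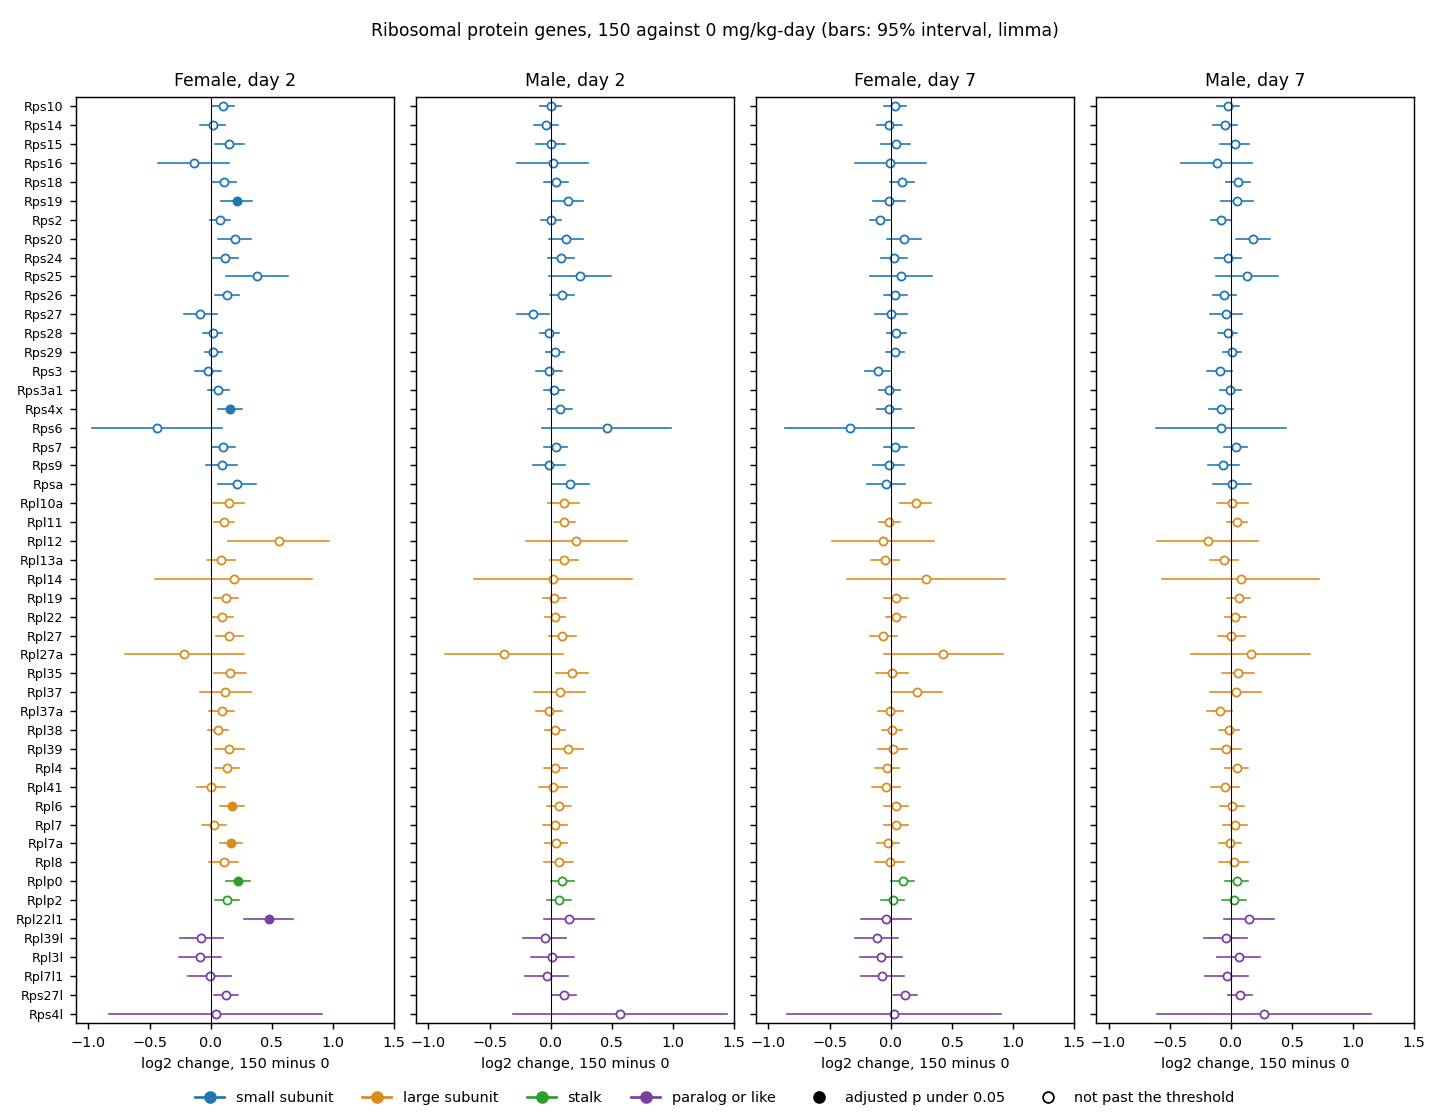
Log2 change of each of the 49 ribosomal protein genes at 150 against 0 mg/kg-day with its 95% interval from limma, in a panel for each sex and day, coloured by role, with filled points for genes with an adjusted p under 0.05. Filled points occur in females on day 2 alone, where 6 genes rose and 41 of 49 changes lie above 0, and the widest intervals belong to the dim members.

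In the other comparisons at 150, 0 of the 49 members passed the threshold. In males on day 2, where 4.9% of all genes were called, the median change was 0.04, with 38 of 49 above 0. At an unadjusted p under 0.05 there were 6 members higher and 1 lower, where 16.1% of all genes passed. Rplp0 stood at 13.31, 13.29, 13.26 and 13.32 in males at 150, against 13.16, 13.20, 13.16 and 13.29 in males at 0, a change of 0.09 ± 0.05 (limma adjusted p = 0.315). A single control array lay within the range at 150. Rpl22l1 stood at 12.12, 12.02, 12.14 and 12.13 in males at 150, against 11.90, 11.97, 11.84 and 12.11 in males at 0, a change of 0.15 ± 0.10 (limma adjusted p = 0.523). Over the bright members the median deviation was 0.02 to 0.09 on the arrays of males at 150, against -0.03 to 0.08 in males at 0. Over all 49 members, the arrays at 150 lay wholly above the controls in 3 and wholly below in 1, with 4.26% and 5.99% of all genes doing so.

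On day 7 the medians were 0.01 in both sexes, and leaving out 1 array moved them through 0, between -0.01 and 0.02 in females and between -0.02 and 0.02 in males. Of all genes, 2.45% were called in females and 3.04% in males. At an unadjusted p under 0.05, 4 members were higher and 2 lower in females, and 1 was higher and 1 lower in males, where 13.7% and 14.9% of all genes passed in females and males. Rplp0 stood at 13.15, 13.22, 13.32 and 13.19 in females at 150 on day 7, against 13.09, 13.07, 13.12 and 13.21 at 0, and was not called. The nearest to a call was Rpl10a of the large subunit in females, which changed by 0.20 ± 0.06 (limma adjusted p = 0.0693) and was called without control replicate 3 or replicate 3 at 150. Rpl22l1 averaged 11.60 ± 0.13 in females at 150 on day 7 and 11.64 ± 0.08 at 0 (SD, n = 4).

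Lower doses gave no call among members in any of 16 comparisons, 0.15, 1.5, 15 and 75 each against 0. Of all genes, 0.451% and 0.764% were called at 75 in females on day 2 and day 7, 0.44% and 0.247% in males on day 2 and day 7, while at 15 the shares were 0.022% in females on both days, 0.0385% in males on day 2 and 0.011% in males on day 7. At 1.5 and 0.15 they were 0%, except for 0.0055% at 0.15 in males on day 7. In females on day 2 the median member change was -0.05 at 0.15, -0.04 at 1.5, 0 at 15, 0.05 at 75 and 0.11 at 150. At the 2 lowest doses 39 and 38 of the 49 members lay below the controls, and at 75 there were 37 above. On single arrays the median deviation of the 36 bright members was -0.13 to -0.01 at 0.15, -0.08 to -0.003 at 1.5 and 0.03 to 0.12 at 75. That of the 997 other bright genes was -0.02 to 0.04 at 0.15, -0.025 to 0.03 at 1.5 and -0.03 to 0.01 at 75. The lowest member value at 0.15 belonged to replicate 4, and the next lowest was -0.03. At an unadjusted p under 0.05 there were 8 members lower at 0.15, where 7.89% of all genes passed, and 7 higher and 1 lower at 75, where 9.94% passed. These comparisons share the same 4 control arrays, so their order rests in part on those arrays.

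Levels of Rplp0 in females on day 2 averaged 13.11 at dose 0, 13.17 at 0.15, 13.17 at 1.5, 13.25 at 15, 13.28 at 75 and 13.34 at 150. Neighbouring doses differed by no more than the larger of their 2 SDs, which lay between 0.04 and 0.09. Rpl22l1 averaged 11.64, 11.68, 11.69, 11.93, 11.98 and 12.11 at the same doses, and its control SD of 0.41 was larger than that at any other dose. Of neighbouring doses, 1.5 and 15 differed by more than their SDs. At 75 the change of Rplp0 was 0.17 ± 0.05 (limma adjusted p = 0.0947) and that of Rpl22l1 0.34 ± 0.10 (limma adjusted p = 0.118), so neither passed the threshold. Without control replicate 1 or 4, Rpl22l1 was called at 75. On day 7 in females the median over members was 0.03 at 0.15, 0.04 at 1.5, 0.05 at 15, 0.03 at 75 and 0.01 at 150.

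**Figure D4:**
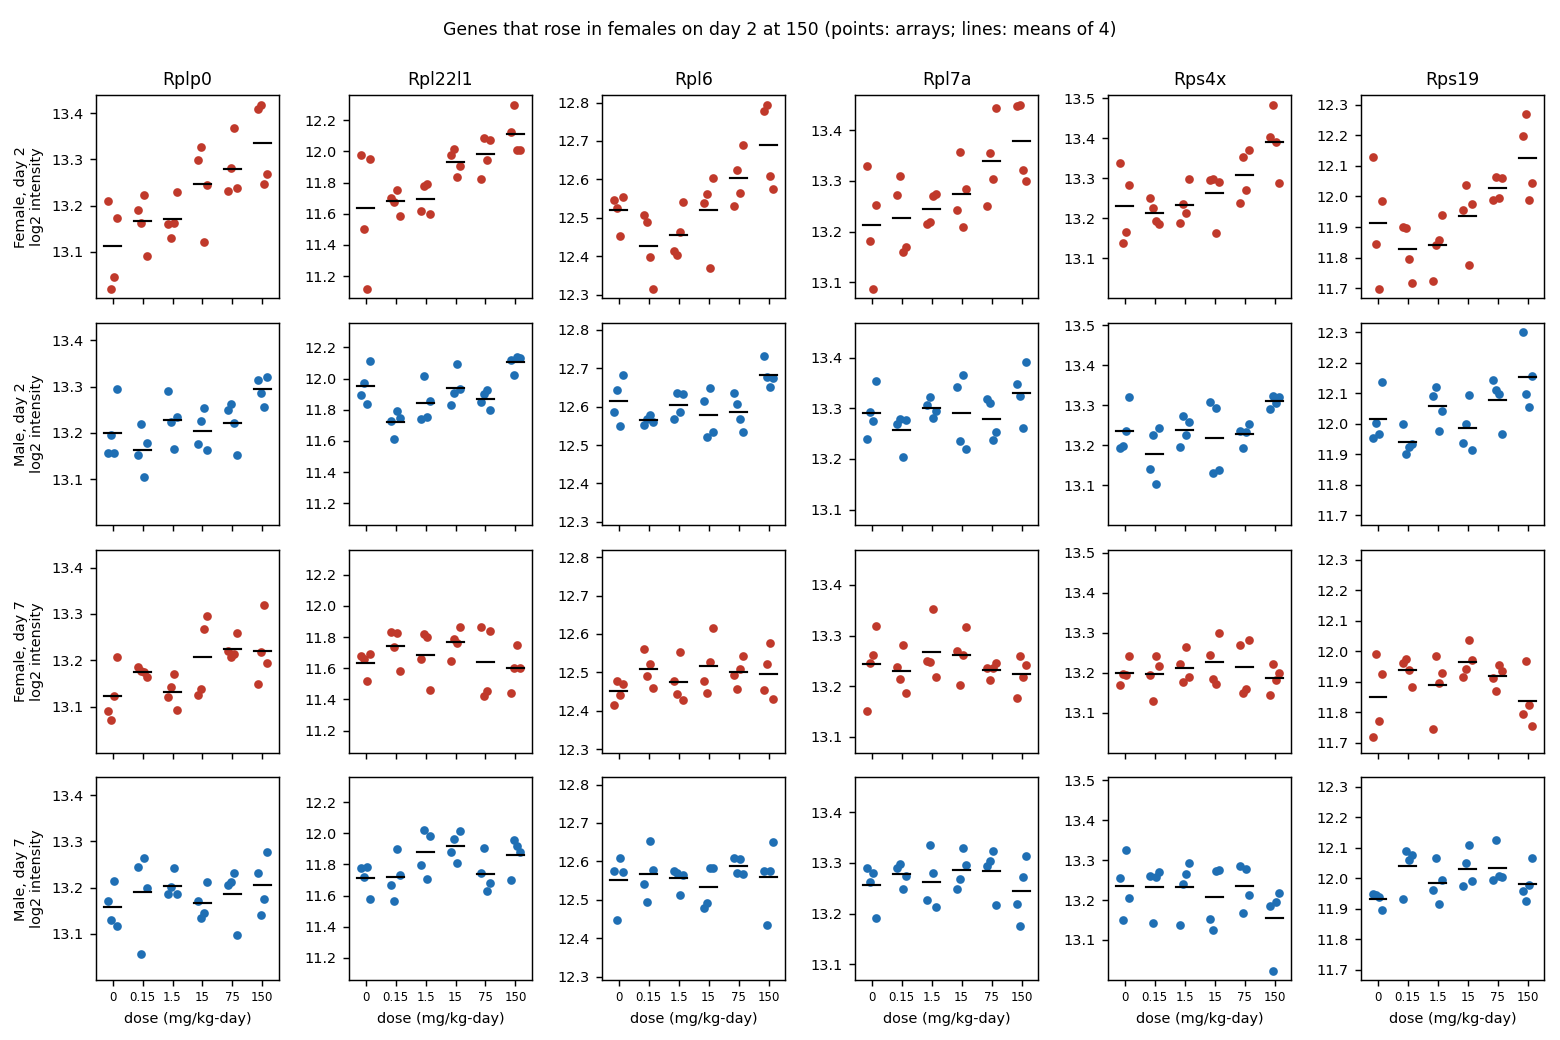
Log2 intensity of the 6 genes that rose in females on day 2 at 150, on each array (points) by dose in mg/kg-day, with means of 4 arrays as lines, in a row for each sex and day. In females on day 2 the means are highest at 150 in all 6 genes, and control arrays of Rpl22l1 run from 11.12 to 11.98.

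Whether responses differed between the sexes or days was tested in the same fit. On day 2 the response at 150 in males minus that in females passed the threshold for 0 of 49 members, where 0.0055% of all genes passed, and 12 differences lay above 0. So did 12 of 76 mitochondrial ribosomal protein genes, 19 of 81 ribosome assembly factors and 11 of 22 regulators, lists described below. For Rpl22l1 the difference was -0.32, with a 95% interval of -0.61 to -0.04, and for Rplp0 -0.13, with an interval of -0.26 to 0.01 (limma adjusted p = 1 for both, to 3 digits). Rps6 had an interval of 0.15 to 1.64, on its dim probe set. On day 7 the same test passed 0 members, where 0.0879% of all genes passed. A difference between the sexes was thus not called in any member, and for Rpl22l1 and Rplp0 the day 2 intervals hold differences as large as the female change.

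The response on day 7 minus that on day 2 passed for 0 members in females and 0 in males, where 0.874% and 0.132% of all genes passed. In females 38 of 49 differences were below 0 with a median of -0.08, and 9 had an unadjusted p under 0.05, all below 0, where 8.16% of all genes passed. Rpl22l1 came nearest, at -0.51 with an interval of -0.80 to -0.22 (limma adjusted p = 0.0655). It was called when the arrays were normalized again by quantiles, and when they were centred on non-member genes with a mean of 10 or more. It was also called in 6 fits that left out 1 array, such as control replicate 1 or 4 of day 2. In males 37 of 49 differences were below 0, with a median of -0.05 and 3 at an unadjusted p under 0.05, where 9.35% of all genes passed. Other lists shared the female shift. Below 0 in females were 64 of 76 mitochondrial ribosomal protein genes, 65 of 81 assembly factors and 10 of 22 regulators, with medians of -0.08, -0.13 and 0.03. In males these were 22, 36 and 12, with medians of 0.05, 0.025 and -0.02.

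Few members passed the threshold between males and females at dose 0, although most lay higher in males. On day 2, 0 members were called, where 2.06% of all genes were, although 35 of 49 were higher in males and the median difference was 0.04, against -0.0004 over all genes. Rpl22l1 averaged 11.96 ± 0.12 in males and 11.64 ± 0.41 in females (SD, n = 4 each; limma adjusted p = 0.0847), and it was called after quantile normalization. On day 7, 2 members were higher in males, or 4.08%, where 6.71% of all genes were called and 2.08% were higher in males. The median difference was 0.05, with 43 of 49 higher in males, against -0.01 over all genes. Rps27l stood at 12.83, 12.88, 12.77 and 12.85 in males, against 12.70, 12.70, 12.68 and 12.60 in females, a difference of 0.16 ± 0.05 (limma adjusted p = 0.0265). Its arrays did not overlap, on a probe set whose specificity against Rps27 was not tested. Rpl10a stood at 13.17, 13.19, 13.16 and 13.03 in males, against 12.88, 12.92, 13.07 and 12.87 in females, a difference of 0.20 ± 0.06 (limma adjusted p = 0.0378). Female replicate 3 reached above male replicate 4. Every fit that left out 1 of these 8 arrays called 1 or 0 members.

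Genes that build the ribosome, but are not part of it, were read as lists beside the share of all genes called, which was 5.46% in females and 4.9% in males on day 2, and 2.45% in females and 3.04% in males on day 7. Of 81 measured assembly factors, 1 rose and 0 fell in females on day 2, or 1.23%, with a median of 0.05. It was Nhp2, a protein of the box H/ACA particles that modify ribosomal RNA, which averaged 10.04 ± 0.27 at 150 and 9.53 ± 0.18 at 0 (SD, n = 4; limma adjusted p = 0.00541). Of 12 genes of RNA polymerase I, which transcribes ribosomal RNA, 0 were called and the median was 0.10. In females on day 7, 2 assembly factors fell, or 2.47%, Utp14a by 0.33 and Ltv1 by 0.38 on the log2 scale. Of the 12 polymerase I genes only the activator Ubtf was called there, and it fell by 0.30 (limma adjusted p = 0.00669). The list medians were -0.09 for assembly factors and -0.06 for polymerase I. In males on day 2, Rrp1b rose by 0.28 and Nop16 fell by 0.42, again 2.47% of assembly factors, and in males on day 7 no gene of either list was called.

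A further list held translation factors and other genes whose mRNAs carry a pyrimidine tract. Of 29 measured, 2 rose and 1 fell in females on day 2, or 10.3% where 5.46% of all genes were called, with a median of 0.05. Nap1l1, a histone chaperone whose mRNA carries a tract, rose by 0.33 and Pabpc4, which binds poly(A) tails, by 0.26. Gas5, a noncoding host of small nucleolar RNAs with a tract, fell by 0.33 (limma adjusted p = 0.0306). In males on day 2, Eef2, which moves the ribosome along the mRNA, fell by 0.16 and Naca, a chaperone of nascent chains, fell by 0.16, or 6.9% of the list where 4.9% of all genes were called. None was called on day 7.

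Among 22 regulators of ribosome production or of its stress response, Larp1b, a relative of LARP1, rose at 150 in all 4 comparisons. It averaged 11.19 ± 0.07 at 150 and 10.92 ± 0.06 at 0 in females on day 2 (SD, n = 4 each; limma adjusted p = 0.00639), and its changes lay between 0.27 and 0.31. Mdm2, which ribosomal proteins can bind when ribosome assembly fails, rose on day 2 by 0.35 in females and 0.32 in males. Nfe2l2, a stress response factor, rose by 0.42 in males on day 7. No other of the 22 was called at 150. The calls were thus Larp1b and Mdm2 on day 2, where 5.46% of all genes were called in females and 4.9% in males. On day 7 they were Larp1b in females, where 2.45% were called, and Larp1b and Nfe2l2 in males, where 3.04% were called. Mitochondrial ribosomal proteins are a separate set that works in the organelle. Of 76 measured, 4 rose and 1 fell in females on day 2, or 6.58%, near the 5.46% of all genes, with a median of 0.05. Mrpl13, Mrpl14, Mrpl20 and Mrpl57 were those that rose, and on day 7 in females Mrps21 rose, or 1.32% of the list where 2.45% of all genes were called.

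**Figure D5:**
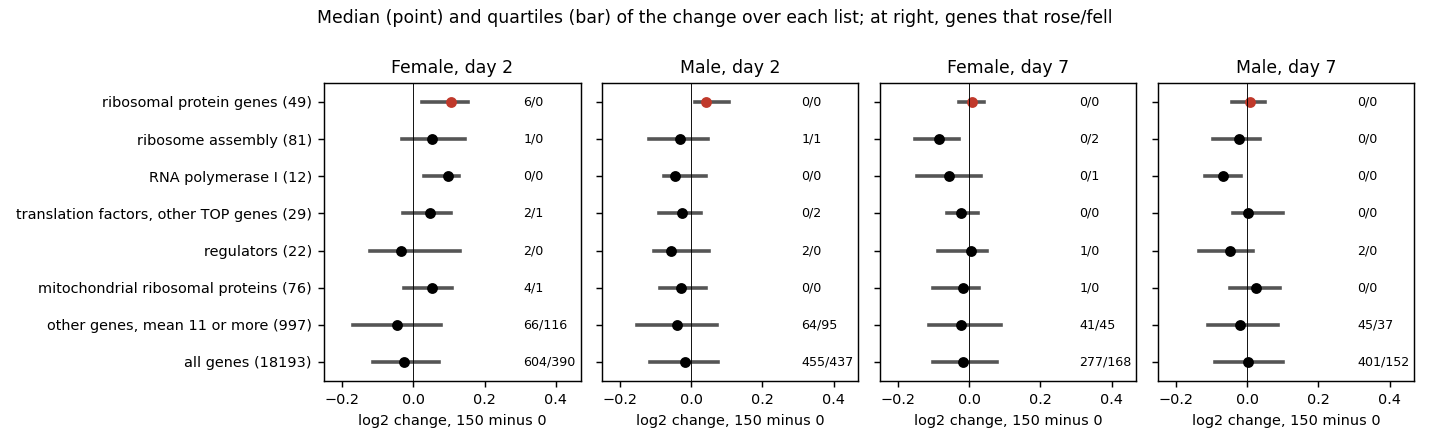
Median (point) and quartiles (bar) of the log2 change at 150 against 0 mg/kg-day over each gene list, with the number of genes that rose and fell at the right, in a panel for each sex and day. Ribosomal protein genes (red) have a median of 0.11 in females on day 2, where the 997 other bright genes have one of -0.05, and medians of 0.01 on day 7.

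Dose and labels were checked with 2 genes. Cyp2b10, the classic CAR target, averaged 13.58 ± 0.03 in females at 150 on day 2 and 8.15 ± 0.80 in females at 0 (SD, n = 4 each). Xist lay between 4.63 and 5.89 on all male arrays and between 12.003 and 12.50 on all female arrays. The 5 hepatocyte markers measured, Alb, Apoa1, Ttr, Fabp1 and Hnf4a, had a summed signal of 16.62 to 16.74 on the log2 scale in females at 150 on day 2, against 16.72 to 16.76 at 0, and 0 of the 5 were called.

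Markers of other cells and of cell division were read beside the ribosomal protein genes. Those of dividing cells rose in 8 of 8 measured genes in females on day 2, with a summed signal of 11.65 to 13.24 at 150, against 10.40 to 11.31 at 0. They also rose in 8 of 8 in males on day 2, with 11.91 to 12.38 at 150, against 10.52 to 10.70 at 0. On day 7, 0 of 8 were called in either sex. Mki67, one of them, averaged 8.44 ± 1.15 in females at 150 on day 2 and 5.80 ± 0.94 at 0. Of 10 Kupffer cell markers, 0 were called in females on day 2, with a summed signal of 13.22 to 14.02 at 150, against 13.43 to 13.92 at 0. Of 6 endothelial markers, Stab2 and Clec4g fell there, where 5.46% of all genes were called. The summed signal of the 6 was 12.08 to 12.47 at 150, against 12.28 to 12.62 at 0. Of the 6 changes, 4 lay below 0 and 2 above, with a median of -0.19. Of 4 neutrophil markers 1 rose, S100a8, by 2.83. Over the 4, 2 changes lay above 0 and 2 below, with a median of -0.01. Their summed signal, which includes S100a8, was 9.77 to 11.002 at 150, against 8.13 to 9.68 at 0. The part of all these markers in the result was not tested.

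A measure of RNA quality was read beside these results. The control probe sets at the 3′ and 5′ ends of Actb differed by 0.74 to 0.83 on the log2 scale in females at 150 on day 2, against 0.81 to 0.98 at 0, over a range of 0.67 to 1.12 on all 96 arrays. For Gapdh the difference was -0.31 to -0.20 at 150, against -0.28 to -0.08 at 0. A smaller 3′ excess is commonly read as less degraded RNA. Control replicate 3, whose omission left 1 member called, had the highest values of its group in both genes, and control replicate 1, with the highest ribosomal protein levels, had the lowest. Control replicate 2 lay between them in both genes, although its median deviation over the bright members was -0.06, as in replicate 3. At 150 the Actb and Gapdh values did not order the arrays alike. Replicate 3 there had the highest Actb value and the lowest Gapdh value, with a median deviation of 0.06. The part of RNA quality in the result was not tested.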

How the data were processed

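The authors deposited 1 table of log2 intensity per probe set and array, from 96 arrays of liver RNA. The steps of summary and normalization before deposit are not given in the sources used here. That the scale is log2 was taken from the values, whose array medians lay between 5.35 and 5.44. Of 45101 probe sets, 34945 carried 1 gene symbol in the platform annotation, 932 several and 9160 none, and 64 were controls. The brightest single-symbol probe set stood for each of 18193 genes. All genes were fitted together in limma 3.58.1 (R 4.3.3) with a mean for each of 24 groups, an empirical Bayes variance and 72 residual degrees of freedom. Benjamini-Hochberg adjustment ran over all genes of a comparison, with a threshold of 0.05, and the fit was tested on simulated data. Figures and promoter searches used matplotlib 3.10.9 and pandas 2.3.3. Promoter sequences and gene positions came from RefSeq tables of build GRCm38.p6, in which all 49 members were found. No 2 arrays held identical values. The number of arrays limits the precision of every value.

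Members and gene lists were chosen with earlier results of these data known. Genes were named by rule: up to 10 called members per comparison at 150, up to 5 called in comparisons across sex or day, the 3 highest and 3 lowest means, the stalk genes, Rpsa, Rps6, Rps27, Rps4x, genes with a paralog measured, up to 4 called genes of each pathway list per comparison at 150, and Cyp2b10, Mki67 and Xist. Others were chosen after their values were seen: Rps25, Rps20, Rpl8, Rpl12, Rpl19, the genes with wide spread, Rpl10a on day 7 in females, and marker genes. Replicate numbers in the titles were checked for pairing: same-numbered arrays had a median correlation of deviations of 0.0005 over 16 pairs of arrays at 150 and 0, with 4 over 0.1, so they were not taken as pairs. Alternatives were a second normalization, another centring, a filter on genes with a mean under 5, the mean of all probe sets, separate fits, another variance moderation, a replicate block, leaving out each array, and, chosen after seeing the data, a fit over all probe sets.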

Additional observations from a re-analysis of the deposited data

Results flagged for a closer look

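In 72 tests of a quantity within a group of 4 arrays for an array far from the others, 2 found one, and chance gives about 1 in 20. Over the 36 bright ribosomal protein genes, replicate 4 of females at 0.15 mg/kg-day on day 2 had a median deviation of -0.1261 from the dose 0 mean, while the other 3 arrays of that group lay between -0.03 and -0.01. Rps4x in males at 150 on day 7 had 13.0234 on replicate 2, against 13.19, 13.20 and 13.22 on the other arrays of its group.

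Probe sets that name several genes, 1 of them a ribosomal protein gene, entered no comparison above. In females on day 2 at 150, 13 of 110 rose and 0 fell in a limma fit over 45037 probe sets, or 11.8% where 3.38% of all probe sets were called, with a median change of 0.10 and 89 above 0. On day 7 in females 2 rose, or 1.82% where 1.27% of all were called, and 0 were called in males on either day.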

How the results depend on the processing

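At 150 in females on day 2, the same 6 members were called after a second quantile normalization. So they were after centring on genes outside the set with a mean of 10 or more. They were also called without genes of mean under 5, with another variance moderation and with a replicate block (998 genes called in all, against 994). Fitting these 24 arrays alone called 2, Rpl22l1 and Rpl12. Averaging all probe sets called 6, with Rps10 in place of Rps4x, and the fit over all probe sets 5. The replicate block changed no call of a member in any comparison. Quantile normalization gave 1 call, Rpl22l1, for males against females at dose 0 on day 2 and 1 for the female response on day 7 minus day 2, where the other centring also gave 1. The fit over all probe sets gave 1, Rps27l, for males against females on day 7. Leaving out 1 array gave 1 to 10 calls in females on day 2 at 150. It gave 0 to 1 in females on day 2 at 75, in females on day 7 at 150, in both sex comparisons at dose 0 and in the female difference between days, and 0 in the rest. The median member change in males on day 2 at 150 ran from 0.0348 to 0.0828. Besides the array left out, the cause of these shifts was not tested. No called change reversed; the day 7 medians, near 0, ran from -0.0137 to 0.0171 in females and from -0.0195 to 0.0246 in males when 1 array was left out, and lay below 0 after quantile normalization (-0.0081 and -0.0094) and the other centring (-0.0146 and -0.0302). With 4 arrays a group, the number of arrays limits which of these small changes can be called.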

Other observations

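Probe sets of members other than the one that stood for the gene were read in a fit over all probe sets. Of 56 such single-symbol probe sets, 2 rose and 0 fell in females on day 2 at 150, or 3.57% where 3.38% of all probe sets were called, with a median change of 0.08 and 43 above 0. One of these was a second probe set of Rps10, a small subunit gene, which changed by 0.18 (limma adjusted p = 0.0251 over all probe sets), while the probe set that stood for Rps10 changed by 0.10 and was not called.

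Among marker genes of other liver cells, none of 6 stellate cell, 4 cholangiocyte, 8 lymphocyte and 2 erythroid markers measured was called by limma in females on day 2 at 150. The summed signal of the stellate markers was 12.62 to 12.80 at 150, against 12.86 to 12.97 at 0, and that of the lymphocyte markers 9.51 to 9.77 at 150, against 9.23 to 9.64 at 0.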
